A study of Mus musculus with 3 samples.

Results

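Gene expression was compared between untreated T cell cultures taken at day 17 and at day 14, using the Cy3 channel of 2 of the 3 two-colour Agilent arrays in the series. In the day 17 group, C57BL/6 mouse bone marrow progenitors had been grown on OP9-DL1 stromal cells with the cytokines Flt3L and IL7 for 17 days. The day 14 group was labelled as such a culture after 14 days, the labels do not say whether both came from 1 marrow pool, and neither group had received pAsc, the vitamin C compound of the study. The Cy3 channel of the remaining array held untreated OP9-DL1 RNA, labelled as osteoblast of B6-C3Hf1 strain in continuous culture, and was used here as the measure of the stroma. The Cy5 channels held RNA of parallel cultures given 800 µM pAsc, for 72 h before day 17, 24 h before day 14 and 24 h in OP9-DL1. Co-cultures were passaged every 3 to 4 days, and stromal cells were removed from T cells by letting them adhere for 30 min, so some stroma could remain.

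Of 41174 probes, 23856 were well above background in Cy3 at both days, and they represented 15888 of 27725 genes. With 1 array per culture day the comparison had no replicate check, so no p-value is given. A rule of size was used, in which a gene counted as higher or lower where its Cy3 signals differed at least 2-fold. The technical spread is the only error available: the log2 difference had an SD of 0.126 between repeat spots of a probe (168 probes) and 0.422 between different probes of a gene (5602 genes). Signals are in arbitrary units after background subtraction and scaling of each array by 1 constant, differences are log2 of day 17 over day 14, and levels of different genes are not compared.

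OP9-DL1 is a mouse stromal line that displays the Notch ligand Delta-like 1. Notch signals from it turn progenitors away from the B lineage and carry them through the early CD4- CD8- stages of T cell development, in which Kit and CD44 are lost, CD25 (Il2ra) appears, the T cell receptor genes are rearranged and a pre-T cell receptor forms. Cells that pass the pre-receptor checkpoint then gain CD8 and CD4.

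The labelled cell types were checked against their defining markers. All 8 T lineage markers were well above background at day 17 and at day 14, and 1 of 8 was so in OP9-DL1 (Cd3e, at a signal of 79.7). All 9 stromal markers were above background in OP9-DL1, 9 of 9 at day 17 and 8 of 9 at day 14. The one missing at day 14 was Dll1, the ligand carried by the line, which read 52.5 at day 17, 12.1 at day 14 (not well above background) and 155 in OP9-DL1. The summed signal of the stromal markers was 88083 at day 17, 46594 at day 14 and 172275 in OP9-DL1, while that of the T lineage markers was 65642 at day 17, 72614 at day 14 and 111 in OP9-DL1. Thbs1, one of the stromal markers, was brighter at both days than in OP9-DL1. Fewer cells of a type and less RNA per cell cannot be told apart in such bulk RNA. Of NK and cytotoxic markers, 6 of 6 were above background at day 17 and at day 14 and 0 in OP9-DL1, with summed signals of 32464 at day 17 and 40490 at day 14. Gzma and Nkg7, both dimmer at day 17, made up most of these sums. Ncr1, Klrb1c and Klrd1 were brighter at day 17. Among other lineages, 4 of 6 B lineage markers were above background at day 17 and 5 of 6 at day 14. At each day 3 of 6 myeloid, 1 of 4 mast cell and 3 of 4 dendritic cell markers were above it. The 3 erythroid markers with a probe were below it on all arrays.

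Short sequences are shown for the genes that carry the main differences. The probes are the 60-base oligonucleotides read on the array, with positions on mm9 as given in the array files: Cd8a at chr6:71323885-71323944, Il7r at chr15:9440943-9441002 (- strand), Igll1 at chr16:16861104-16861163 (- strand), Vpreb3 at chr10:75412043-75412102 and H2-Ab1 at chr17:34404388-34404447. The first and the second stand for genes brighter at day 17, and the others for genes dimmer at day 17.
Cd8a probe: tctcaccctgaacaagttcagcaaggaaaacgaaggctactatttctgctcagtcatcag
Il7r probe: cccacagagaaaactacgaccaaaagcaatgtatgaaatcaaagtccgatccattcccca
Igll1 probe: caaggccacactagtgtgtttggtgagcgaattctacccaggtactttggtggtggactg
Vpreb3 probe: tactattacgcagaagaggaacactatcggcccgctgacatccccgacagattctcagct
H2-Ab1 probe: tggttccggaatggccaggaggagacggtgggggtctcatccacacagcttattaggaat

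Promoters are shown for genes of the T lineage that were brighter at day 17 (Cd8a, Ptcra, Il7r) and for the surrogate light chain genes and their relative, which were dimmer together (Igll1, Vpreb1, Vpreb3). They run from 250 bases before to 50 bases after the first listed start of each gene and come from RefSeq on GRCm38.p6, at chr6:71373177-71373476 (+ strand), chr17:46763663-46763962 (- strand), chr15:9529827-9530126 (- strand), chr16:16863936-16864235 (- strand), chr16:16869206-16869505 (- strand) and chr10:75948050-75948349 (+ strand). Capitals mark matches on either strand to the letters CAGNTG (E-box, bound by E proteins) or TGTGGT (RUNX). The EBF palindrome, TCCC and GGGA with any 2 bases between them, had no match in these 6 windows, which says only that the letters are not there.
Cd8a promoter: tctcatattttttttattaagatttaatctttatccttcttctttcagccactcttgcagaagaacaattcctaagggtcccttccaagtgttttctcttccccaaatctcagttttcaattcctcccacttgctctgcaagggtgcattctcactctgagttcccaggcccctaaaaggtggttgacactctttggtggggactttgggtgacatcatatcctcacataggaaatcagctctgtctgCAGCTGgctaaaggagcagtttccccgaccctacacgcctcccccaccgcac
Ptcra promoter: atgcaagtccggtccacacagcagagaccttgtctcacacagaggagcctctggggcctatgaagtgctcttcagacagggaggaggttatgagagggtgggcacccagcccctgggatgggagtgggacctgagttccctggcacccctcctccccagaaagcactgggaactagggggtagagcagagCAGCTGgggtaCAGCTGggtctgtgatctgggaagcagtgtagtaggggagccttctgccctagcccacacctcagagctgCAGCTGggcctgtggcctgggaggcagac
Il7r promoter: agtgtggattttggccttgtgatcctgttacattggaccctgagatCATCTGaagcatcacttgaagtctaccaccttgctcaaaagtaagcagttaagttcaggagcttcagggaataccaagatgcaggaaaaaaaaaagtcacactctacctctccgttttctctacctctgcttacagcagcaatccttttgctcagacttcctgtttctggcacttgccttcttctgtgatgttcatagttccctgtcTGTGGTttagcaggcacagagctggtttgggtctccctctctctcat
Igll1 promoter: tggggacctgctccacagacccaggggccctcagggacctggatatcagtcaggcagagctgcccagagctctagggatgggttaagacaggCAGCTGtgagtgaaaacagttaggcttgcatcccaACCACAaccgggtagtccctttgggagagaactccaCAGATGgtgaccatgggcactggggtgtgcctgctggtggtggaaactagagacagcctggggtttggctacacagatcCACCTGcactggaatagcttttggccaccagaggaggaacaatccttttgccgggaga
Vpreb1 promoter: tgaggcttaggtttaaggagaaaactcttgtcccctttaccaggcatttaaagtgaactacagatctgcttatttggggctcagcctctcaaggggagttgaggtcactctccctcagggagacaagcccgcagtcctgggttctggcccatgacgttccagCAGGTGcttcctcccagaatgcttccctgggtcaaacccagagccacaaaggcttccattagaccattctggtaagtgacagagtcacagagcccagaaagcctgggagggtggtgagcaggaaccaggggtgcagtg
Vpreb3 promoter: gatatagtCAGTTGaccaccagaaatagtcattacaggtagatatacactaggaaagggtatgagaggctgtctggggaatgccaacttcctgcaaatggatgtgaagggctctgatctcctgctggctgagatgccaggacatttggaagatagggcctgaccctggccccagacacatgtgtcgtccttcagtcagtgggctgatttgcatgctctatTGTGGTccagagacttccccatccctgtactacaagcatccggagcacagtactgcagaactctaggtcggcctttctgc

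Every one of the 6 windows held an E-box match, with 3 in Ptcra, 3 in Igll1 and 1 in each of the others. One RUNX match stood in Il7r, in Igll1 and in Vpreb3. Of 27025 promoters of the same length, 51.1% held the E-box letters, 16.9% the RUNX letters and 0.914% the EBF letters. A match describes the letters only, and E-box matches occurred both in genes that were brighter and in genes that were dimmer at day 17.

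Past the 2-fold rule, 1791 of the 15888 measured genes (11.3%) were higher in the day 17 culture, and 960 (6.04%) were lower. The level of a gene in the stromal line divided these groups. A gene was marked as possible stromal RNA where OP9-DL1 was brighter than both T cell arrays, which held for 6557 genes, or 41.3% of those measured. Of the higher genes, 1567 (87.5%) carried the mark, against 8 (0.833%) of the lower genes. Among marked genes 23.9% were higher and 0.122% lower. Among the 9331 genes without the mark the balance was the other way, with 224 (2.4%) higher and 952 (10.2%) lower. The median log2 difference was 0.38 over marked and -0.20 over unmarked genes.

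**Figure D1:**
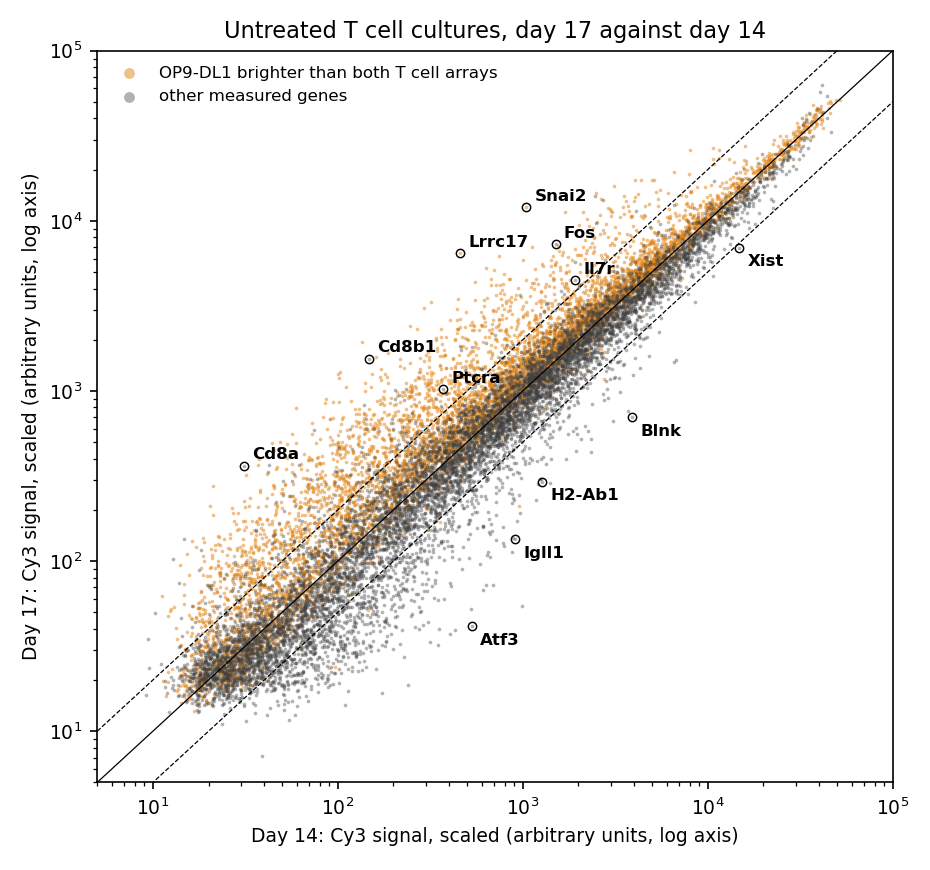
Cy3 signal of each measured gene at day 17 (vertical axis) and day 14 (horizontal axis), scaled, both log axes. Orange points are genes brighter in OP9-DL1 than on both T cell arrays, grey points the other genes, the solid line equal signal and the dashed lines 2-fold. Most of the 1791 genes above the upper dashed line are orange, and nearly all of the 960 below the lower one are grey.

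The share of higher genes followed the stromal level in steps. Of 2184 genes not well above background in OP9-DL1, 51 (2.34%) were higher and 494 (22.6%) lower. Where OP9-DL1 was above background but not the brightest, 173 of 7159 genes were higher and 458 lower. Where it was brighter than both T cell arrays by less than 2-fold, 524 of 4689 were higher and 8 lower. At 2-fold to 4-fold brighter, 857 of 1609 (53.3%) were higher, and at 4-fold or more, 186 of 247 (75.3%). In both of these classes 0 genes were lower. The part that stromal RNA had in any single gene's difference was not tested.

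**Figure D2:**
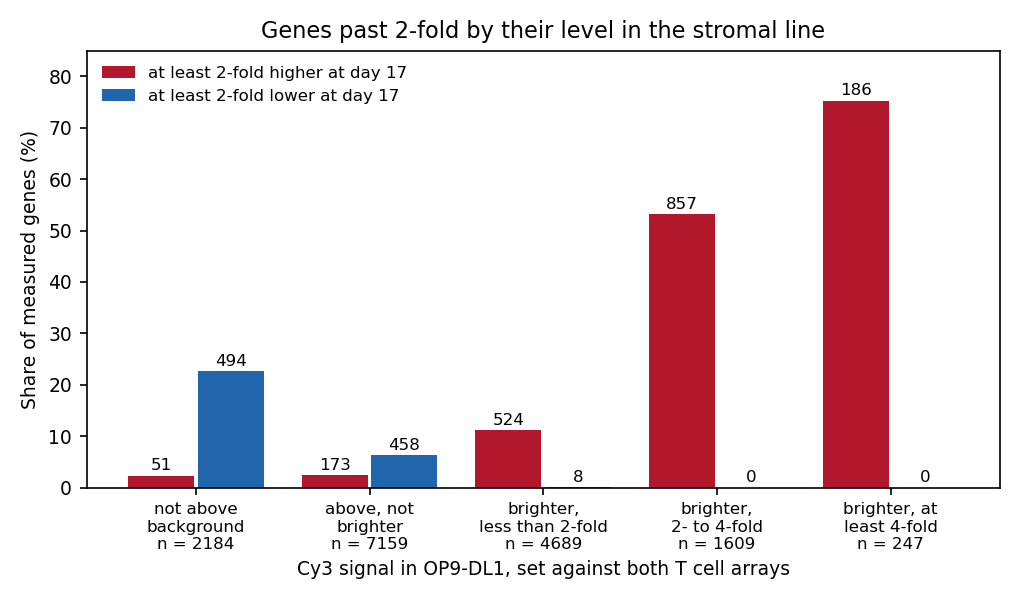
Share of measured genes, in percent, at least 2-fold higher (red) or lower (blue) at day 17, for 5 classes of Cy3 signal in OP9-DL1, with the number of genes above each bar and the class size under it. The red bars climb from 2.34% to 75.3% and the blue bars shrink from 22.6% to 0.

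Of 45 connective tissue genes listed, 43 were measured. Past 2-fold, 29 were higher and 0 lower, with a median of 1.53 where that over all genes was 0.04. The 29 were among the 39 members with the stromal mark, where 23.9% of all marked genes were higher. Postn, which encodes the matrix protein periostin, had a signal of 2049 at day 17, 338 at day 14 and 7599 in OP9-DL1, a log2 difference of 2.60. Mmp2, a gelatinase, had 4186 at day 17, 753 at day 14 and 9191 in OP9-DL1 (2.48). Myl9, a myosin light chain of contractile cells, had 11330 at day 17, 1686 at day 14 and 48412 in OP9-DL1 (2.75). In each of the 3, day 17 lay between day 14 and the stromal line, as it must in any higher gene with the stromal mark (defined above).

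Levels of this list relative to the stroma were summarised over its 41 members above background in OP9-DL1. Their median was 47.8% of the OP9-DL1 signal at day 17 and 16.1% at day 14. Percentages ranged from 15.5 to 196 at day 17 and from 3.48 to 186 at day 14. Probes disagreed for Col1a1, the alpha-1 chain of type I collagen: the brightest read 22548 at day 17, 16171 at day 14 and 39674 in OP9-DL1 (0.48), and the other probes gave 1.66 and 1.80. Thbs1, encoding thrombospondin, was above the stromal level at both days, at 2454 at day 17, 2320 at day 14 and 1250 in OP9-DL1 (0.08). Thy1, listed here as a fibroblast marker but also a T cell marker, read 904 at day 17, 1185 at day 14 and 4.05 in OP9-DL1 (-0.39).

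**Figure D3:**
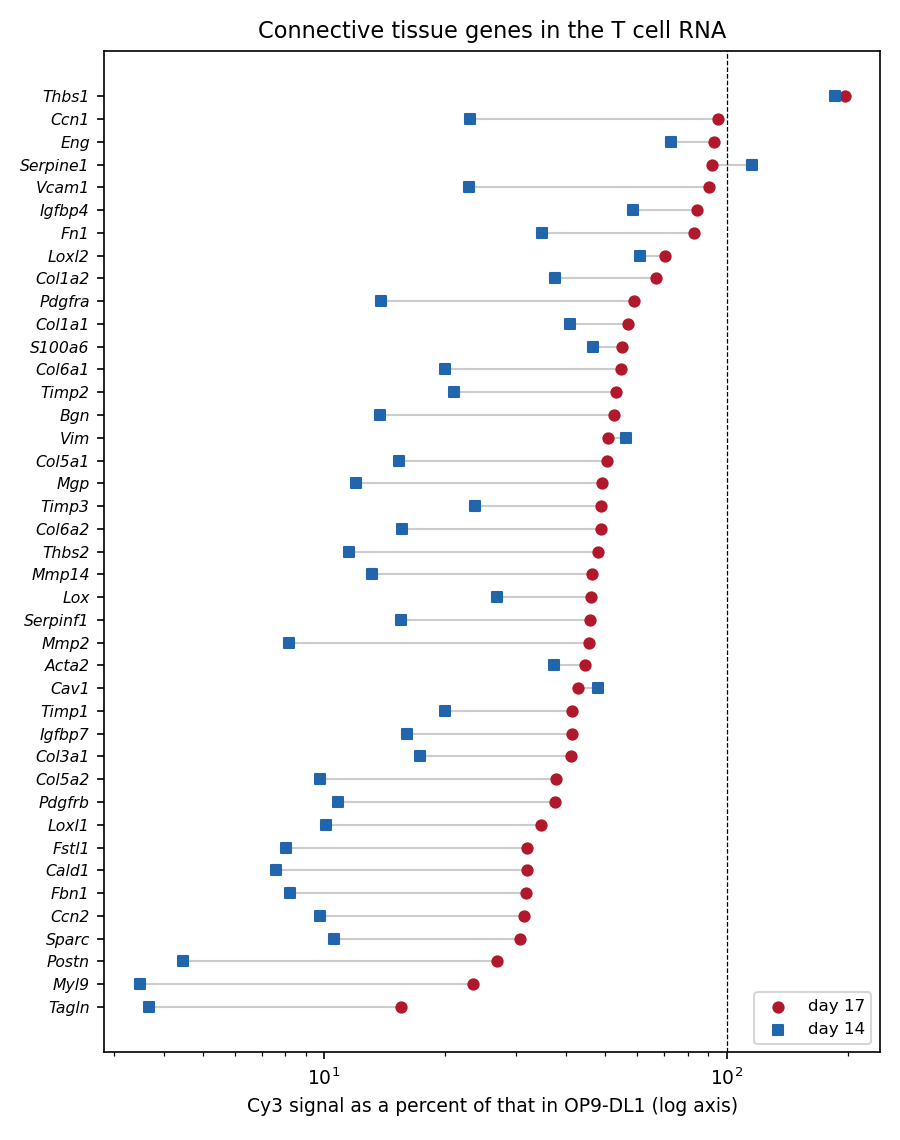
Cy3 signal at day 17 (red circles) and day 14 (blue squares) as a percent of that in OP9-DL1 (log axis), for 41 connective tissue genes ordered by their day 17 value. The dashed line is the OP9-DL1 level, and the medians are 47.8% at day 17 and 16.1% at day 14.

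OP9 stroma is known to turn into adipocytes readily. Of 19 measured genes of fat and bone cells, 10 were higher and 1 lower, with a median of 1.03, and 15 of 19 carried the stromal mark. Among the 4 unmarked ones 1 was higher and 1 lower. Of all marked genes 23.9% were higher. Adipoq (adiponectin) read 277 at day 17, 21.0 at day 14 and 561 in OP9-DL1 (3.72). Lpl, lipoprotein lipase, read 5169 at day 17, 700 at day 14 and 6153 in OP9-DL1 (2.88), and Cebpd, an early adipogenic transcription factor, read 6204, 747 and 9410 in the same order (3.05). Dlx5, a homeobox gene of bone formation, had 164 at day 17, 48.2 at day 14 and 629 in OP9-DL1 (1.77), and Alpl (alkaline phosphatase) 808, 327 and 1277 (1.30). Scd1, a fatty acid desaturase, was the lower member, with 166 at day 17, 417 at day 14 and 295 in OP9-DL1 (-1.33).

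Of 18 measured niche factors, through which stroma feeds blood cells, 8 were higher and 2 lower, with a median of 0.80. Among the 8 marked ones 6 were higher, where 23.9% of all marked genes were. Among the 10 unmarked ones 2 were higher and 2 lower, with a median of -0.08. Cxcl12, the ligand of CXCR4, read 26256 at day 17, 8019 at day 14 and 48514 in OP9-DL1 (1.71). Csf1, the macrophage growth factor, read 3454 at day 17, 759 at day 14 and 5146 in OP9-DL1 (2.19). The Notch ligand Jag1 read 2024 at day 17, 501 at day 14 and 4852 in OP9-DL1 (2.01). Kitl, the ligand of Kit, and Il6 exceeded the stromal level at day 17: Kitl read 1818 at day 17, 531 at day 14 and 894 in OP9-DL1 (1.78), and Il6 458, 119 and 131 (1.95). The lower members were Cxcl10, an interferon-induced chemokine at 299 at day 17, 751 at day 14 and 14.9 in OP9-DL1 (-1.33), and the Notch ligand Jag2 at 39.7 at day 17 and 85.5 at day 14 (-1.11).

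Ddit4l had the largest difference of the marked genes, followed by Lrrc17. Lrrc17 read 6480 at day 17, 456 at day 14 and 31292 in OP9-DL1, a log2 difference of 3.83. Snai2, a zinc-finger repressor of mesenchymal cells, read 12080 at day 17, 1046 at day 14 and 19674 in OP9-DL1 (3.53). Ddit4l, an inhibitor of mTOR signalling, differed by 3.85, Adipoq (above) by 3.72, Palmd by 3.65, the Eph receptor Ephb3 by 3.64 and the guidance molecule Rgma by 3.56. Fold sizes ran from 11.5 for Snai2 to 14.4 for Ddit4l. Each was brighter still in OP9-DL1, which the mark requires. Among marked genes, 8 were lower, including the glucocorticoid-induced Tsc22d3 at 1175 at day 17, 2752 at day 14 and 4953 in OP9-DL1 (-1.23), and the troponin gene Tnni2 at 31.5, 67.9 and 73.0 (-1.11).

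Some of the unmarked higher genes were also bright in OP9-DL1. Ogn, which encodes a small matrix proteoglycan, read 13986 at day 17, 2455 at day 14 and 10969 in OP9-DL1 (2.51), and Sned1 read 13301, 2715 and 11108 (2.29). Matn4, encoding the matrix protein matrilin-4, read 367 at day 17, 42.6 at day 14 and 347 in OP9-DL1 (3.10), and Col14a1 296, 56.3 and 76.1 (2.39). For these genes the day 17 culture was above the stromal level, by the most in Col14a1. Of the 224, 51 were not well above background in OP9-DL1, Cd8a, Cd8b1 and Ptcra among them. They were 2.34% of the 2184 measured genes at that level, near the 2.4% of all unmarked genes that were higher.

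Cd8a and Cd8b1, which encode the chains of the CD8 coreceptor, had the 2 largest upward differences of all unmarked genes. Cd8a read 364 at day 17 and 31.1 at day 14, a log2 difference of 3.55, with 4.92 in OP9-DL1, not above background. Its 3 probes gave differences of 3.55, 2.68 and 1.89, and the probe printed above gave the smallest, at 67.7 at day 17 and 18.2 at day 14. Cd8b1 read 1551 at day 17, 147 at day 14 and 14.3 in OP9-DL1 (3.40). The coreceptor gene Cd4 did not move with them, at 23.3 at day 17, 22.7 at day 14 and 17.9 in OP9-DL1 (0.04), where it was not above background.

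Other T lineage genes brighter at day 17 belonged to the pre-receptor stage and to thymic homing. Ptcra, the pre-T cell receptor alpha chain, read 1023 at day 17 and 370 at day 14 (1.47). Il7r, the receptor chain for IL7, read 4502 at day 17, 1915 at day 14 and 7.17 in OP9-DL1 (1.23), and its other probes gave 1.15 and 0.78. Ccr9, which encodes the receptor for the thymic chemokine CCL25, read 1861 at day 17 and 885 at day 14 (1.07), and Slamf6, a SLAM family receptor of thymocytes, 233 and 115 (1.01). Ccr9 and Slamf6 fell short of 2-fold with 75th percentile or spike-in scaling. In all of these the stromal line was not above background.

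The other T lineage genes differed little, and several were dimmer at day 17. Among all unmarked genes 10.2% were lower and the median was -0.20. The counts of lower members given here are near that share. The 10 measured T cell receptor and CD3 genes had 1 higher and 1 lower member and a median of -0.02. Cd3d read 17946 at day 17 and 19272 at day 14 (-0.10), and Cd3g 18666 and 21347 (-0.19). Lck, the kinase bound to the coreceptors, read 15478 at day 17 and 16058 at day 14 (-0.05). Zap70, the kinase recruited to the receptor, read 1010 and 826 (0.29). Of 26 receptor signalling genes, 0 were higher and 2 lower: Pag1, a membrane adaptor, at 386 at day 17 and 1192 at day 14 (-1.63), and the ubiquitin ligase gene Cblb at 13.4 and 51.3 (-1.94), which was near the background at day 17. Cd28, the costimulatory receptor, read 302 at day 17 and 1261 at day 14 (-2.06), while its other probe gave -0.61.

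Receptor rearrangement genes differed by less than 2-fold, with 1 exception among 13. Rag1, which cuts the receptor loci, read 2752 at day 17 and 2247 at day 14 (0.29), and Dntt, the polymerase that adds junctional bases, 39602 and 34200 (0.21). Rag2, the partner of Rag1, was dim, at 24.5 at day 17 and 16.9 at day 14 (0.53). The exception was Dclre1c (the nuclease Artemis), lower at 128 at day 17 and 282 at day 14 (-1.13), and the probe of this gene nearest the 3′ end gave -0.44.

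Of 18 transcription factors of T lineage commitment, 0 were higher and 1 lower, with a median of -0.10. Among all unmarked genes 10.2% were lower. Bcl11b, which marks commitment, read 5382 at day 17 and 4182 at day 14 (0.36). Gata3 read 9436 and 9441 (0.00). Tcf7, the earliest Notch-induced factor, read 5726 at day 17 and 9594 at day 14 (-0.74), short of 2-fold. The lower member was Hhex, a homeobox gene of progenitors and B cells, at 228 at day 17 and 556 at day 14 (-1.29).

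Of 18 Notch receptors and target genes, Ptcra alone was past 2-fold, and the list median was 0.19. Dtx1, a direct Notch target, read 11078 at day 17, 9696 at day 14 and -0.14 in OP9-DL1 (0.19). Notch1, the receptor that thymocytes need, read 1345 at day 17, 1845 at day 14 and 590 in OP9-DL1 (-0.46). Notch3 had 4406 at day 17, 2412 at day 14 and a higher level, 7486, in OP9-DL1 (0.87). Hes1, a repressor induced by Notch, read 283, 331 and 290 (-0.23).

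Surface genes of the CD4- CD8- stages gave 2 higher and 1 lower of 12, with a median of -0.37. Il2ra (CD25) read 4424 at day 17 and 5974 at day 14 (-0.43), and Kit 2459 and 3009 (-0.29). Cd34, a progenitor marker, read 1389 at day 17 and 2850 at day 14 (-1.04). The higher members were Il7r and Ly6a (Sca-1), which read 3253 at day 17, 1572 at day 14 and 1486 in OP9-DL1 (1.05). Cd44, an adhesion receptor also made by stroma, read 1969 at day 17, 2895 at day 14 and 4606 in OP9-DL1 (-0.56).

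**Figure D4:**
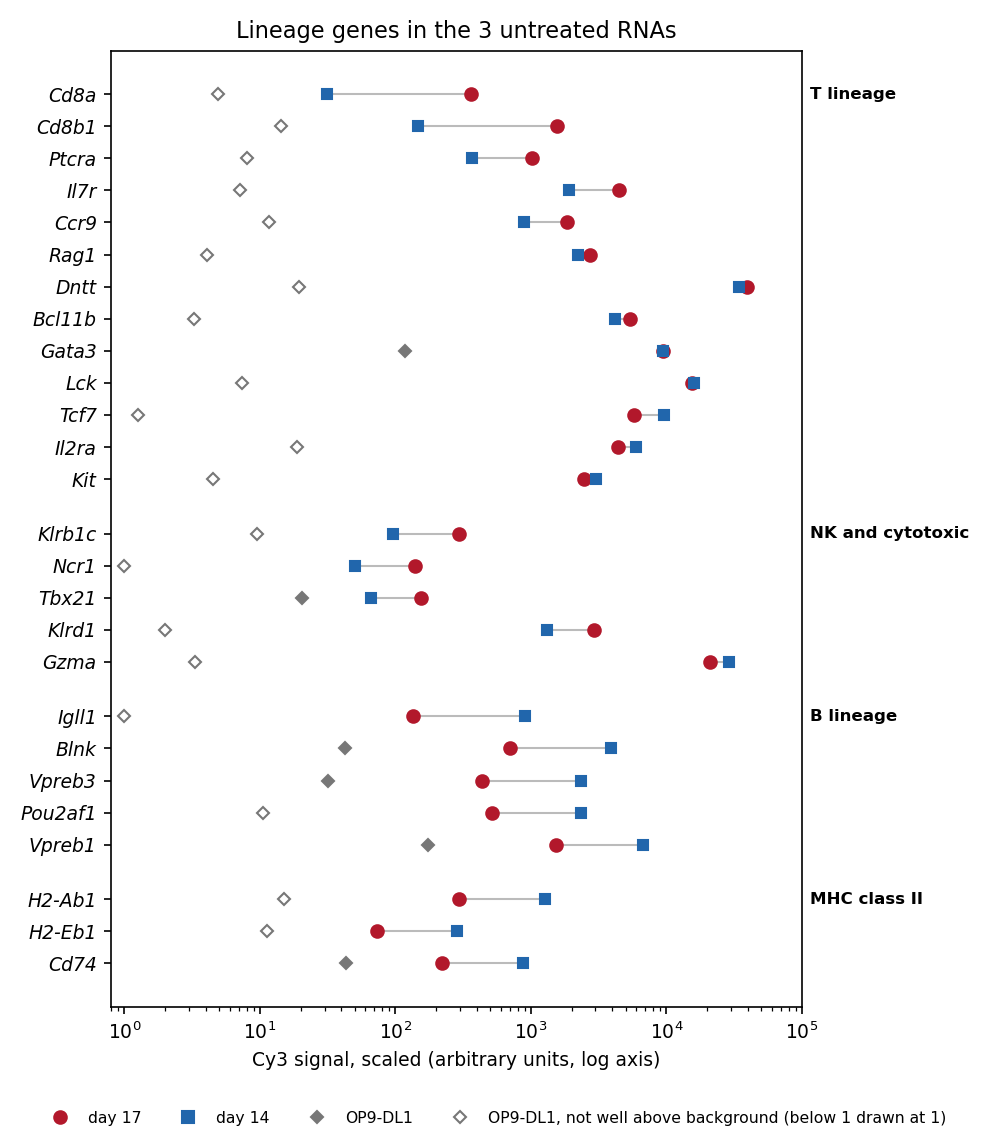
Cy3 signal (log axis) of lineage genes at day 17 (red circles), day 14 (blue squares) and in OP9-DL1 (grey diamonds, open where not well above background, and drawn at 1 where below 1). The CD8 chains and the NK receptors lie to the right at day 17, and the B lineage and MHC class II genes to the left.

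Of 26 measured genes of natural killer and cytotoxic cells, 7 were higher and 0 lower, with a median of 0.34, and 2 carried the mark. The 7 were among the 24 unmarked members, where 2.4% of all unmarked genes were higher. Klrb1c (NK1.1) read 293 at day 17, 96.3 at day 14 and 9.58 in OP9-DL1 (1.61). Ncr1 (NKp46), the natural cytotoxicity receptor, read 140 at day 17 and 50.5 at day 14 (1.47), and Klrd1 (CD94) 2948 and 1306 (1.17). Tbx21 (T-bet), the transcription factor of type 1 lymphocytes, read 155 at day 17, 66.6 at day 14 and 20.5 in OP9-DL1 (1.22). The other higher members were Klrc1 (1.08), the chemokine gene Xcl1 (1.05) and the chemokine gene Ccl5 (1.02), which read 2514 at day 17, 1239 at day 14 and 389 in OP9-DL1. Klrb1c and Klrd1 were past 2-fold under every alternative run that measured them, while the other 5 fell short of it in 2 or more.

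Genes of cytotoxic granules on the same list, chosen after their values were seen apart from Gzma, were not past 2-fold. Gzma (granzyme A) read 20993 at day 17 and 29090 at day 14 (-0.47), Gzmb (granzyme B) 11857 and 22437 (-0.92), and Nkg7 8040 and 9900 (-0.30). Prf1 (perforin) was dim, at 48.3 at day 17 and 47.4 at day 14 (0.03). None of the 4 was above background in OP9-DL1.

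Further receptors were brighter at day 17, and apart from Il1rl1 they were not above background in OP9-DL1. Gpr15, a homing receptor of T cells, read 332 at day 17 and 98.6 at day 14 (1.75). Cd200r1, an inhibitory receptor, read 204 and 70.0 (1.55), and Pdcd1 (PD-1) 957 at day 17 and 382 at day 14 (1.32). Cxcr3, a chemokine receptor of type 1 lymphocytes, read 292 at day 17 and 129 at day 14 (1.18), and the Toll-like receptor gene Tlr1 369 and 147 (1.33). Il1rl1, the receptor for IL-33, read 579 at day 17, 166 at day 14 and 71.3 in OP9-DL1 (1.80), but its other probe gave 0.27.

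B lineage genes were the list with the lowest median, -1.03. Of 21 measured, 12 were lower and 1 higher. The 12 were among the 20 unmarked members, where 10.2% of all unmarked genes were lower with a median of -0.20. Of the 21, 15 were not above background in OP9-DL1, and 22.6% of all genes at that level were lower. Igll1 and Vpreb1 encode the surrogate light chain of the pre-B cell receptor. Igll1 read 135 at day 17, 912 at day 14 and 0.98 in OP9-DL1 (-2.75), and Vpreb1 1525, 6703 and 175 (-2.14). Vpreb3, a relative of Vpreb1, read 439 at day 17, 2332 at day 14 and 31.7 in OP9-DL1 (-2.41), with a second probe at -2.36.

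Signalling and surface genes of B cells were dimmer as well. Blnk, the adaptor downstream of the B cell receptor, read 700 at day 17 and 3894 at day 14 (-2.48), and Pou2af1, a B cell coactivator, 521 and 2325 (-2.16). Ms4a1 (CD20) read 28.4 at day 17 and 132 at day 14 (-2.22), and Cd79b, a signalling chain of the B cell receptor, 1113 and 2297 (-1.05). The higher member was Ebf1, the B cell specification factor, at 388 at day 17, 156 at day 14 and 1037 in OP9-DL1 (1.31); it was the list's marked member, and pre-adipocytes also express it. Pax5, the B cell commitment factor, was not above background on any array.

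Dendritic cell genes, including those of class II antigen presentation, share Cd74 and Ciita with the B lineage list. Of 19 measured dendritic cell genes, 8 were lower and 1 higher, with a median of -0.41. None carried the mark, and 10.2% of all unmarked genes were lower with a median of -0.20. Of the 19, 11 were not above background in OP9-DL1, where 22.6% of all such genes were lower. H2-Ab1, the class II beta chain, read 294 at day 17, 1271 at day 14 and 14.9 in OP9-DL1 (-2.11), and its 4 probes ranged from -2.41 to -1.93. H2-Eb1 read 73.7 at day 17 and 285 at day 14 (-1.95), and Cd74, the invariant chain, 221 and 876 (-1.99). Cd83, a glycoprotein of mature dendritic and B cells, read 43.6 at day 17 and 307 at day 14 (-2.82). Irf8, a transcription factor of dendritic and B cells, read 287 and 769 (-1.42). Ciita, the class II transactivator, was dim at both days, at 29.4 at day 17 and 30.5 at day 14 (-0.05). The higher member was Cd80, at 197 at day 17, 51.2 at day 14 and 150 in OP9-DL1 (1.94). The 4 dendritic cell markers did not move together. Itgax (CD11c) read 125 at day 17 and 91.3 at day 14, and Zbtb46 25.6 and 26.7. Siglech was not above background on any array. The last, a class II chain gene, was dimmer, at 48.5 at day 17 and 135 at day 14.

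Myeloid genes gave 3 higher and 3 lower of 19, with a median of -0.17. As in most genes of the array, where 87.5% of higher and 0.833% of lower genes were marked, the higher ones were marked and the lower ones were not. Of the lower, Ctsg (cathepsin G) read 244 at day 17 and 960 at day 14 (-1.97), Mpo (myeloperoxidase) 22.9 and 78.3 (-1.78), and Adgre1 (F4/80) 62.6 and 199 (-1.67). The higher ones were Cebpa, Cd14 and Cebpb. Cebpa, which stroma that forms fat also uses, read 662 at day 17, 125 at day 14 and 1358 in OP9-DL1 (2.41).

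Of 19 measured progenitor transcription factors, 3 were higher (the homeobox genes Hoxa10, Meis1 and Hoxa7, all marked) and 2 lower (Mycn and Hhex), shares near the 11.3% and 6.04% of all genes. Hoxa10 read 116 at day 17, 21.6 at day 14 and 467 in OP9-DL1 (2.42). Mycn, a MYC family gene of progenitors, read 349 at day 17 and 866 at day 14 (-1.31). Lyl1, a progenitor factor of the bHLH family, read 1436 and 2562 (-0.84). Of the mast cell genes, Cpa3, a mast cell protease that early progenitors also express, read 3888 at day 17 and 5567 at day 14 (-0.52), and Mcpt4, Ms4a2 and Tpsb2 were not above background on any array.

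Of 23 measured immediate-early genes, which respond to signals, 4 were higher and 4 lower, with a median of -0.06. Both sets were among the 21 unmarked members, where 2.4% of all unmarked genes were higher and 10.2% lower. Fos read 7327 at day 17, 1504 at day 14 and 70.2 in OP9-DL1 (2.28), and Dusp1, a MAP kinase phosphatase, 3882, 1603 and 1926 (1.28). Jun read 4222 at day 17, 2004 at day 14 and 1954 in OP9-DL1 (1.08). Fosb, a relative of Fos, differed the other way, at 876 at day 17, 1973 at day 14 and 60.8 in OP9-DL1 (-1.17). Atf3, a stress-induced factor of the same family, read 41.4 at day 17, 531 at day 14 and 44.7 in OP9-DL1 (-3.68), the largest downward difference of unmarked genes after the clone AK041395 (-4.18).

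Of 35 glycolysis and hypoxia-response genes, 0 were higher and 5 lower at day 17, and 30 were below 0, with a median of -0.50. The 5 lower ones were among the 28 unmarked members, whose median was -0.59. Among all unmarked genes 10.2% were lower and the median was -0.20. Slc16a3, a lactate exporter, read 762 at day 17, 3698 at day 14 and 53.1 in OP9-DL1 (-2.28). Aldoc, an aldolase, read 578 at day 17 and 2245 at day 14 (-1.96), and Egln3, the oxygen-sensing prolyl hydroxylase, 914 and 2881 (-1.66). Slc2a3, a glucose transporter, read 489 at day 17 and 1349 at day 14 (-1.46), and Ero1a, an oxidase of protein folding, 1143 and 2837 (-1.31). Other members were below 0 with small sizes, such as Ldha (lactate dehydrogenase) at 18895 at day 17 and 26677 at day 14 (-0.50) and Pgk1 at 24310 and 32914 (-0.44).

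Of 57 measured cell cycle genes, 47 were below 0 and 10 above, and past 2-fold 0 were lower and 1 was higher. Their median was -0.27, where that of all unmarked genes was -0.20, and it was -0.04 with scaling on unmarked probes. Mki67, the proliferation marker, read 11011 at day 17, 14484 at day 14 and 652 in OP9-DL1 (-0.40). The higher member was Ccnd1, cyclin D1, a marked gene at 1367 at day 17, 495 at day 14 and 5344 in OP9-DL1 (1.47). Ribosomal protein genes, 34 of 38 of them marked, had a median of 0.09 with 0 higher and 1 lower. Respiratory chain genes, 29 of 35 marked, had 1 higher and 0 lower with a median of 0.11, and 24 chromatin genes had 0 higher and 1 lower with a median of -0.29.

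**Figure D5:**
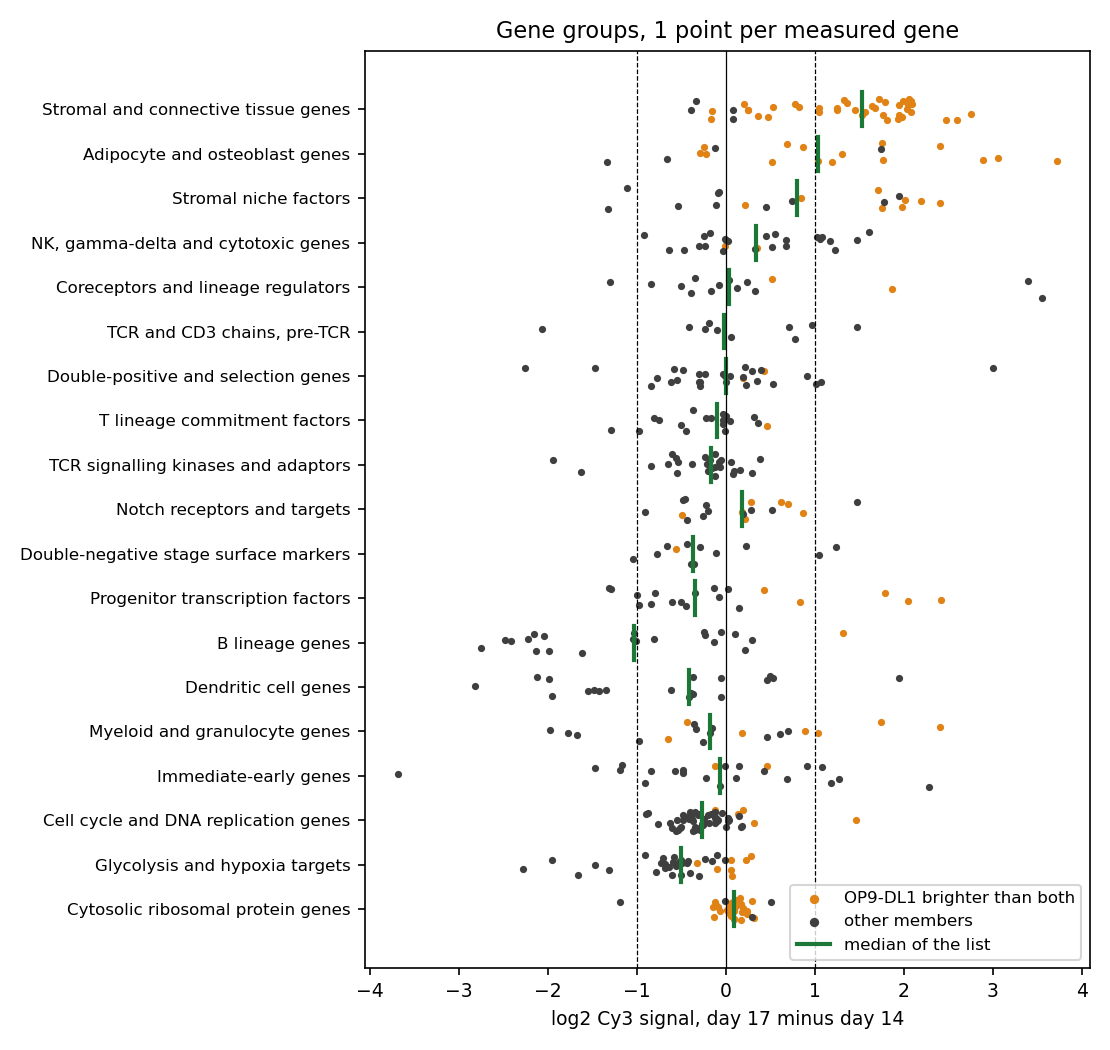
Log2 difference in Cy3 signal, day 17 minus day 14, with 1 point per measured gene in 19 gene groups. Orange points are genes brighter in OP9-DL1 than on both T cell arrays, grey points the other members, green bars list medians and dashed lines 2-fold. Connective tissue, fat and bone groups lie to the right with medians of 1.53 and 1.03, the B lineage group to the left at -1.03.

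The median of -0.20 over unmarked genes depends on the scaling, since each scaling shifts all genes by 1 constant. With arrays scaled on unmarked probes only, the median over all genes moved to 0.27, and with the 75th percentile it moved to -0.08. Scaling on 10 spike-in RNAs gave -0.06. Of all calls, 65.1% were higher under the reported scaling. That share was 56.1% with 75th percentile scaling, 57.5% with spike-in scaling, 60.6% with Agilent's processed signal, 61.4% with quantile normalization, 67.4% with normexp, loess and Aquantile, 75.5% with normexp alone and 78.4% with scaling on unmarked probes. The medians of the B lineage, dendritic cell, glycolysis and cell cycle lists stayed below 0, and those of the connective tissue, fat and bone, and niche lists above 0, in all 10 alternatives run. The NK list median was -0.01 where a signal of at least 200 was required at both days and above 0 in the other alternatives.

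A further difference between the arrays followed the position of the probe. In 5065 genes with measured probes at least 300 bases apart on 1 strand, the median log2 difference was 0.07 at the probe nearest the 3′ end and -0.08 at the probe nearest the 5′ end. The probe nearest the 5′ end was at least 2-fold lower at day 17 in 398 of these genes, and the probe nearest the 3′ end in 104. Of 121 of these genes called lower, 76 were also at least 2-fold lower at the probe nearest the 3′ end, and 16 were above 0 there. Of 511 called higher, 481 were at least 2-fold higher there as well. In the lower set, 545 genes (56.8%) had clone or predicted names, against 145 (8.10%) in the higher set and 19.6% of all measured genes. The part of RNA length or quality in these differences was not tested. For the class II gene H2-Ab1 the probes at both ends were past 2-fold (-2.11 at the 3′ end, -2.05 at the 5′ end), and Vpreb3 and Aldoc were past 2-fold at every probe. Other lower genes had probes that fell short of 2-fold or lay above 0: Cd28 (-0.61), Pag1 (-0.54), Irf8 (-0.84) and Dclre1c (0.18).

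Genes above background at 1 day only lie outside the 15888 and have a bound in place of a difference. The bound sets the brighter signal against the higher of the dim probe's own signal and the lowest signal above background on that array. Where the own signal is the higher, as for Slc26a7, Dll1 and Flt3 below, it is the plain ratio to a signal near background. It is therefore a bound by this rule only. At day 17 only, 570 genes were above background. Of these, 276 had a bound past 2-fold, and 187 of the 276 were marked. At day 14 only there were 1147, of which 464 had a bound past 2-fold, and 21 of these were marked. Slc26a7, an anion transporter, was 18.6-fold higher at day 17 by this rule (286 at day 17, 15.4 at day 14, 592 in OP9-DL1), and Dll1 4.33-fold higher. Il7 itself was at least 2.48-fold higher, at 22.4 at day 17, 7.90 at day 14 and 31.2 in OP9-DL1. In the other direction, Mef2c, a transcription factor of progenitors and B cells, was at least 5.09-fold lower (6.76 at day 17, 36.3 at day 14), and Cd180, a Toll-like receptor homologue of B cells, at least 3.81-fold lower (5.27 and 27.2). Flt3, the receptor for Flt3L, was at least 2.43-fold lower (24.4 at day 14).

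The treated RNA of the same 2 arrays was read beside these values. It is no replicate, since it is RNA of other cultures, given pAsc for unequal times, in the other dye and on the same arrays. Of the 224 unmarked higher genes, 160 were past 2-fold in the same direction in treated RNA, and of the 1567 marked ones 1339 were. Of 945 lower genes measured in treated RNA, 831 were at least 2-fold lower. The share of all measured genes past 2-fold in treated RNA was not counted, so these counts have no baseline beside them. In treated RNA Cd8a read 2492 at day 17 and 91.1 at day 14 (4.77), and Cd8b1 13342 and 285 (5.55). Igll1 read 106 at day 17 and 2716 at day 14 (-4.68), and the B lineage list had 12 lower members with a median of -1.76. Ccr9, past 2-fold in untreated RNA, read 2522 at day 17 and 1991 at day 14 in treated RNA (0.34).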

How the data were processed

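RNA was measured on 3 two-colour Agilent arrays of 1 slide, each with RNA of an untreated culture in Cy3 and of a treated one in Cy5. The deposited intensity values are the mean spot signal and median local background that, per the file headers, came from Agilent Feature Extraction 10.5.1.1 with probes placed on mm9. Each array held 43379 spots, of which 26450 (61.0%) were well above background in Cy3 at day 17, 27206 (62.7%) at day 14 and 22864 (52.7%) in OP9-DL1, and 0 were saturated. Their number and brightness limit the precision.

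Local background was subtracted, flagged outlier spots were left out, and spots of a probe were averaged. Measured probes had a share of 0.5 or more of their spots well above background on each T cell array. One constant per array set the median log2 difference to 0. A gene took its brightest probe. Array accessions were named through RefSeq tables of GRCm38.p6: accessions named 25263 probes, symbols 6233 and synonyms 1603, while 8075 probes have the name given by the array files.

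Named genes were the 15 largest unmarked and 8 largest marked differences in each direction with a gene symbol and all probes on 1 side of 0, up to 5 per direction of each list, and a list of key genes, and the text leaves some out; a few genes are not reported here. The largest differences among genes not above background in OP9-DL1 were added to the rule after values were seen. AK041395, Alpl, Cd3d, Cd3g, Cd79b, Ciita, Cxcl12, Gzmb, Iigp1, Irf8, Kitl, Ldha, Nkg7, Pgk1, Prf1, Thbs1, Vpreb1, the sex chromosome genes and the genes above background at 1 day only fall outside it and were chosen after their values were seen. The members and the 33 lists were chosen with earlier results of these data known. With 1 array per day no test was run. On simulated arrays with 200 changed probes, 200 were called and 0 unchanged ones. The error rate of the 2-fold rule on the measured arrays was not tested. Alternatives covered scaling, background correction, a signal minimum, the probe of a gene and the stromal mark. Python 3.11.15, numpy 2.4.6, pandas 2.3.3, R 4.3.3 and limma 3.58.1 were used.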

Additional observations from a re-analysis of the deposited data

Results flagged for a closer look

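The difference between culture days was opposite in the untreated and the pAsc-treated RNA for 1 gene past 2-fold in both, Cxcl9, an interferon-induced chemokine. In untreated RNA it read 57.0 at day 17 and 19.2 at day 14, a log2 difference of 1.57. In treated RNA it read 40.5 at day 17 and 84.5 at day 14, a log2 difference of -1.06. The difference between the 2 contrasts was not tested, since each rests on 1 pair of channels. Its signal in OP9-DL1 was 13.1, not above background, and the gene has 1 probe.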

How the results depend on the processing

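No paired analysis was possible because each culture day has 1 array. Of 103 genes named in the text and past 2-fold, 76 stayed past it in every alternative that measured them. They gave 983 values under alternatives, all of the same sign, of which 912 were past 2-fold. For 47 of them 1 or more alternatives gave no value. Cblb, Cxcl9, Cxcr3, Hoxa7, Kdm5d, Meis1, Mpo, Mx2, Ncr1 and Tbx21 fell short of 2-fold only with normexp (with or without loess and Aquantile), Fosb, Tsc22d3 and Xist only with scaling on unmarked probes, Il1rl1 only with the signal minimum, and Jun and Ly6a only with other scalings or quantile normalization. Ccl5, Ccr9, Cd34, Cd79b, Cebpb, Dclre1c, Jag2, Klrc1, Slamf6, Tnni2 and Xcl1 did so under several kinds of alternative. The count of higher genes, 1791, was 752 with a signal of at least 200 at both days. The count of lower genes, 960, was 394 with normexp and an offset of 50, 589 with normexp, loess and Aquantile, and 188 with the signal minimum; without the stromal mark these 3 values were 392, 586 and 186, against 952. The count of unmarked higher genes, 224, was 128 with 75th percentile scaling, 399 with scaling on unmarked probes, 118 with normexp, 90 with normexp, loess and Aquantile, and 65 with the signal minimum. With other definitions of the mark it was 748 (OP9-DL1 at least 2-fold brighter than both), 83 (brighter than at least 1) and 51 (above background in OP9-DL1), and the last left 494 unmarked lower genes. Fewer genes are tested under the signal minimum (9567), and normexp with an offset shrinks differences of dim probes; the cause of the other changes was not tested. Using the probe nearest the 3′ end, an alternative chosen after seeing the data, gave 1811 higher and 943 lower. The single array per day and signals near background limit dim genes most.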

Other observations

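Genes of the sex chromosomes differed between the culture days. Xist, the RNA of the inactive X chromosome, read 6954 at day 17 and 14787 at day 14, with 11.3 in OP9-DL1, and its 4 probes gave log2 differences from -1.24 to -1.09. The Y-linked genes went the other way: Eif2s3y read 883 at day 17, 229 at day 14 and 396 in OP9-DL1 (1.95), Ddx3y 345, 105 and 130 (1.72), and Kdm5d 84.1, 27.8 and 113 (1.60). Ddx3y and Eif2s3y at day 17 were above their OP9-DL1 level. The sex of the marrow donors, and whether both days came from 1 marrow pool, are not given in the sources used here, so a difference in donors and the difference in days cannot be told apart for any gene.

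Interferon-stimulated genes gave 4 higher and 2 lower of 36, shares near those of all genes (11.3% and 6.04%), with a median of 0.27. Ifit3, an antiviral gene, read 147 at day 17, 33.9 at day 14 and 593 in OP9-DL1 (2.12), and Ifi44 152, 36.3 and 119 (2.06). Iigp1, an interferon-induced GTPase outside that list and chosen after its values were seen, read 1833 at day 17, 460 at day 14 and 41.6 in OP9-DL1 (1.99). Mx2 was lower, at 36.5 at day 17 and 102 at day 14 (-1.49). Of the BCL2 family, Pmaip1 (NOXA), a pro-apoptotic member, read 560 at day 17 and 1967 at day 14 (-1.81), and Bid, also pro-apoptotic and a marked gene, 1119, 430 and 2017 in OP9-DL1 (1.38). Tnfsf11 (RANKL) read 401 at day 17 and 1717 at day 14 (-2.10), and the chemokine receptor gene Cxcr4 621 and 2171 (-1.80), while its ligand Cxcl12 was brighter at day 17.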
